A study of Mus musculus with 6 samples.

Results

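Apoe, Cst7, Lgals3, Lgals1, Fabp5, Cd52, Lyz2 and Ch25h encode secreted, surface and lipid-handling proteins that are associated with the disease-associated state of microglia. They were taken by gene symbol and are 8 of the 22672 genes listed in the deposited tables, each found on 1 row. RNA was sequenced from BV2 cells, an immortalized line of mouse microglia, in 3 libraries labelled shNumb-ctr and 3 labelled shscr-ctr. The shNumb-ctr cells carried a hairpin named for Numb, and the shscr-ctr cells one that is by its usual reading a scrambled control. No label names a treatment of these libraries or spells out the suffix ctr, although the series title sets Numb and Ifi204 beside microglial activation and lipopolysaccharide. The labels do not say that the 3 libraries of a group came from separate cultures, so the p-values measure only the spread between these libraries, which may be technical. Whether a hairpin line was 1 clone is not given in the sources used here.

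The disease-associated state was described in mice for microglia around amyloid plaques and in degenerating tissue. In that state the genes of resting microglia fall and those of lipid uptake, lysosomal digestion and secretion rise, in part under the lipid-sensing receptor TREM2. ApoE, the protein of Apoe, carries cholesterol and phospholipid out of the cell, FABP5 carries fatty acids inside it, and the enzyme of Ch25h turns cholesterol into the signalling lipid 25-hydroxycholesterol. Galectin-1 and galectin-3 are sugar-binding proteins of Lgals1 and Lgals3, cystatin F is the protease inhibitor of Cst7, Lyz2 encodes lysozyme, and Cd52 encodes a short peptide on a lipid anchor at the cell surface.

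The deposited values were taken to be FPKM, which scale fragments to transcript length and library size, and summed to between 451077 and 455561 per library. The sequencing depth is unknown, so no counting interval is given. Numb itself was at 38.0, 37.2 and 40.0 FPKM in shNumb-ctr-labelled libraries, against 35.8, 36.7 and 36.1 FPKM in shscr-ctr-labelled libraries. The mean of the hairpin's target was thus not lower under its label (log2 fold change 0.08, SE 0.0357, limma adjusted p = 0.137), so the groups are named below by their labels alone. Log2(FPKM + 1) was compared with limma, a linear model that shares variance among genes, over the 10594 genes at 1 FPKM or more in at least 3 libraries, and a gene rose or fell where its adjusted p was under 0.05. All 12 markers of macrophages and microglia passed that filter. Of 55 markers of astrocytes, neurons, oligodendrocytes, endothelium, fibroblasts and pericytes, lymphocytes and neutrophils, 51 did not, and the 4 that passed were Mbp, Cnp, Flt1 and Cxcr2. The summed neutrophil list was at 2.73 to 3.53 FPKM in shNumb-ctr-labelled libraries and at 5.70 to 6.59 FPKM in shscr-ctr-labelled libraries, most of it Cxcr2. Cxcr2 was at 2.83, 2.40 and 2.59 FPKM in replicates 1, 2 and 3 labelled shNumb-ctr, against 5.82, 5.19 and 5.99 FPKM in replicates 1, 2 and 3 labelled shscr-ctr. Elane was at 0.221 to 0.456 FPKM in shNumb-ctr-labelled libraries and at 0.290 to 0.530 FPKM in shscr-ctr-labelled libraries, S100a8 reached at most 0.251 and 0.125 FPKM, and Ly6g, S100a9 and Retnlg were at 0. Summed endothelial markers, mostly Flt1, were at 27.2 to 28.5 FPKM in shNumb-ctr-labelled libraries and at 24.2 to 26.1 FPKM in shscr-ctr-labelled libraries, with Cldn5 at 0. Cxcr2 fell (log2 -0.89), Mbp and Cnp were not called, and Flt1 rose (log2 0.15), a call lost when any 1 shNumb-ctr library was left out. Of the 12 markers of macrophages and microglia, 4 rose and 2 fell, or 3 and 0 without shscr-ctr replicate 1. What part these markers have in the results below was not tested.

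Of the 8 genes, Lgals3, Lgals1, Fabp5 and Lyz2 rose in shNumb-ctr-labelled libraries, by 1.14-fold to 1.16-fold, and 0 fell. Apoe, Cst7 and Cd52 did not pass the threshold, and Ch25h was below the filter and was not tested. In such bulk RNA, a change in the number of cells that express a gene and a change in its RNA per cell cannot be told apart. Over all genes, 859 of 10594 tested were higher, which is 8.11%, and 1130 were lower, which is 10.7%, so that 18.8% were called in either direction (limma, adjusted p under 0.05). With upper-quartile rescaling 1116 were higher and 747 lower. Of the 893 tested genes with a mean at least as high as that of Cst7, the lowest of the 7 that were tested, 15.5% were higher and 19.5% lower. The counts in the gene lists below stand beside these shares, and no test compared them. The median log2 fold change was 0.19 for the 7 tested genes and -0.02 for all tested genes. The libraries labelled shNumb-ctr lay wholly above those labelled shscr-ctr for Cst7, Lgals3, Lgals1, Fabp5 and Lyz2. The same was true of 16.3% of all tested genes, and 39.9% showed no overlap in either direction. The number of these genes called higher was between 3 and 5 in every alternative tried, and no alternative called any of them lower.

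**Figure D1:**
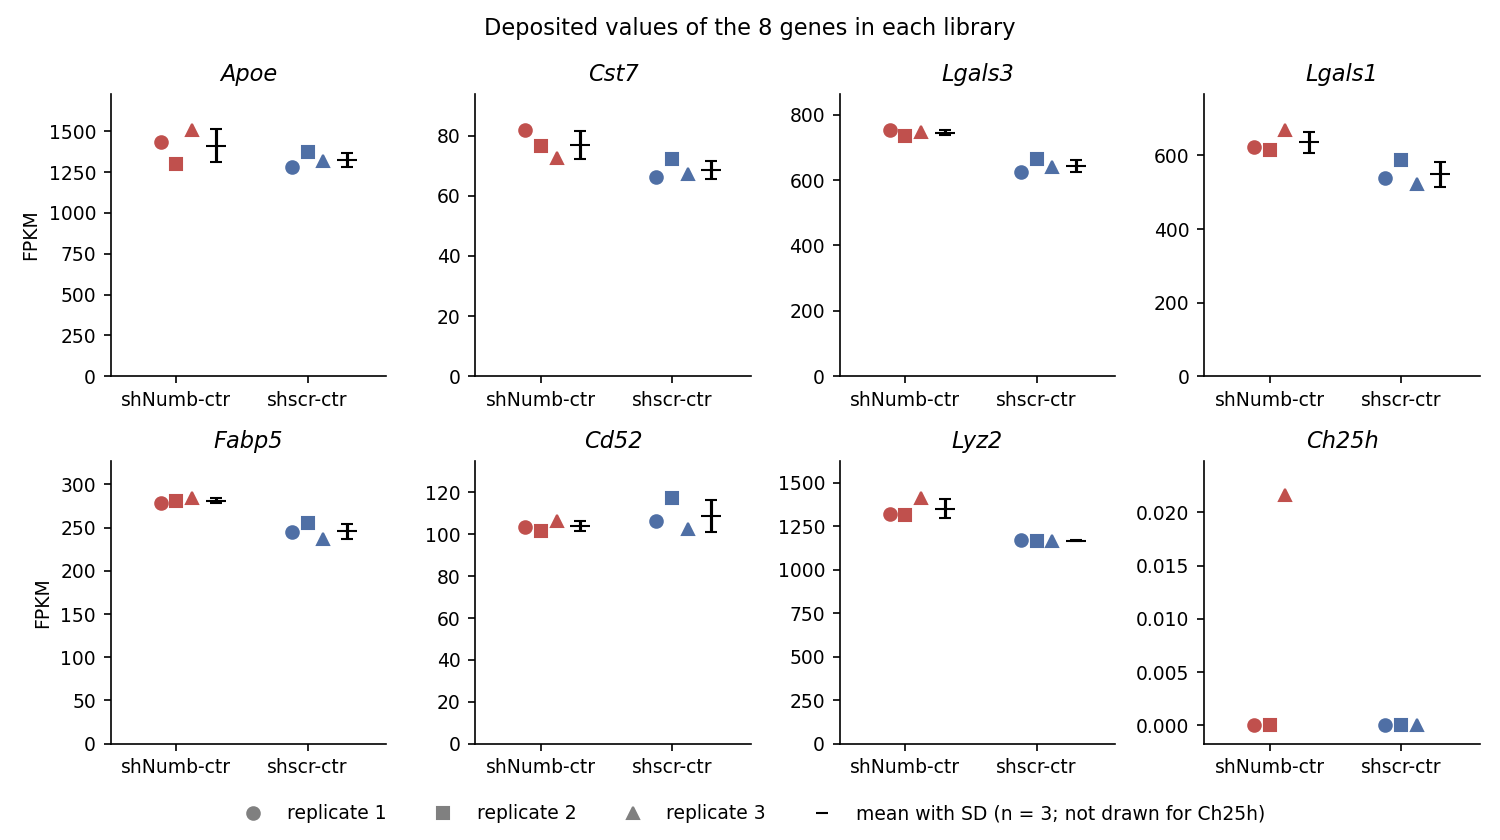
Deposited values (FPKM, linear axis) of the 8 genes in each library, with the libraries labelled shNumb-ctr in red on the left and those labelled shscr-ctr in blue on the right; symbols mark the replicate numbers and black bars the mean and SD (n = 3). Lgals3, Lgals1, Fabp5, Lyz2 and Cst7 show no overlap between the groups, Apoe and Cd52 overlap, and the Ch25h axis ends near 0.02 FPKM.

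The 8 genes covered a wide span of levels. Apoe and Lyz2 ranked 40 and 48 by mean FPKM among the 22672 listed genes, Lgals3 and Lgals1 97 and 116, Fabp5 215, Cd52 586 and Cst7 893. Ch25h ranked 14648. Apoe and Lyz2 overlapped in level in shNumb-ctr-labelled libraries, and Apoe was above Lyz2 in every library labelled shscr-ctr. No other neighbours in that order overlapped within a group. Together the 8 genes made up 1.01%, 0.977% and 1.05% of the summed FPKM in shNumb-ctr-labelled libraries, against 0.889%, 0.938% and 0.895% in shscr-ctr-labelled libraries. By this sum, for which no test was run, every library labelled shNumb-ctr was above every one labelled shscr-ctr.

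Apoe (ENSMUSG00000002985, chromosome 7) was at 1431, 1301 and 1505 FPKM in replicates 1, 2 and 3 labelled shNumb-ctr, against 1283, 1372 and 1317 FPKM in replicates 1, 2 and 3 labelled shscr-ctr. The groups overlapped, because shNumb-ctr replicate 2 lay below shscr-ctr replicates 2 and 3. The means were 1413 ± 103 FPKM in shNumb-ctr-labelled libraries and 1324 ± 45.2 FPKM in shscr-ctr-labelled libraries (SD, n = 3 each), a fold of 1.07. On the log2 scale the difference was 0.09, with SE 0.0524 and 95% limits of -0.03 and 0.21 (limma adjusted p = 0.253). Without shNumb-ctr replicate 2 the log2 difference was 0.15 and passed the threshold (limma adjusted p = 0.0418), and without shNumb-ctr replicate 3 it was 0.04 (limma adjusted p = 0.574). The interval for Apoe holds both 0 and the values found for Lgals1, Fabp5 and Lyz2.

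Of 17 tested genes of lipoprotein handling and cholesterol export other than Apoe, 4 rose and 0 fell, with a median log2 fold change of 0.05. The risers were Lrpap1, a chaperone of the lipoprotein receptor family (1.32-fold, log2 0.40, limma adjusted p = 0.00124), Npc2, which moves cholesterol out of lysosomes (log2 0.16), Mylip, a ligase that marks the LDL receptor for degradation (log2 0.25), and the lysosomal acid lipase gene Lipa (log2 0.13). Lipa and Mylip lost the call in 7 and 4 of 16 alternatives, and 2 of the 17 genes were called without shNumb-ctr replicate 1 or without shscr-ctr replicate 3. The median of the list depended on single libraries, at 0.0130 without shNumb-ctr replicate 1, 0.0190 without shscr-ctr replicate 1 and -0.00488 without shscr-ctr replicate 3. Of the sterol exporters that act with ApoE, Abca1 was at 9.54 ± 0.426 FPKM against 10.7 ± 0.506, and Abcg1 at 16.7 ± 0.117 against 17.5 ± 0.384 (SD, n = 3 each, shNumb-ctr against shscr-ctr); neither passed (limma adjusted p = 0.0865 and 0.280). Abca1 and Abcg1 were chosen for naming after their values were seen.

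Fabp5 (ENSMUSG00000027533, chromosome 3), the fatty acid carrier, was at 278, 280.3 and 284 FPKM in replicates 1, 2 and 3 labelled shNumb-ctr, against 245, 255 and 237 FPKM in replicates 1, 2 and 3 labelled shscr-ctr. The lowest library labelled shNumb-ctr was above the highest labelled shscr-ctr. Its means were 281 ± 3.09 FPKM and 245 ± 9.13 FPKM (SD, n = 3 each) for shNumb-ctr and shscr-ctr, 1.14-fold up in shNumb-ctr-labelled libraries. The log2 fold change was 0.19, with SE 0.0314 and 95% limits of 0.12 and 0.27 (limma adjusted p = 0.00638), and Fabp5 was called in each of the 16 alternatives. Processed copies of Fabp5 exist in the mouse genome. Of 319 windows of 50 bases along its longest annotated transcript, of 3238 bases, 13 also occur in other genes, which is 4.08%. On a shorter transcript the same 13 windows would be a larger share. Of 15 tested genes of fatty acid binding, uptake and lipid droplets other than Fabp5, 2 rose and 1 fell. Without shNumb-ctr replicate 2 these counts were 3 and 2, and without shNumb-ctr replicate 3 they were 3 and 1. Fabp4, the adipocyte and macrophage relative of Fabp5, rose 1.41-fold, with 83.6 ± 1.83 FPKM in shNumb-ctr-labelled libraries against 59.2 ± 2.26 FPKM in shscr-ctr-labelled libraries (SD, n = 3 each, log2 0.49, limma adjusted p = 3.2e-04). Abhd5, a coactivator of lipolysis, rose (log2 0.30), and Hilpda, which inhibits it, fell (log2 -0.24).

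Ch25h (ENSMUSG00000050370, chromosome 19) was listed at 0 in 5 libraries and at 0.0216 FPKM in shNumb-ctr replicate 3. No fold change or test is given for it. Its exons overlap those of Gm26902 on the opposite strand. Of 10 tested genes that make, sense or answer to oxysterols, 2 rose and 2 fell. Their median log2 fold change was near 0, at -0.0106, and its sign was not stable: it was 0.00329 without shscr-ctr replicate 3, and 0.00704, 0.0179 and 0.0125 with median-of-ratios, upper-quartile and quantile scaling. Osbpl8, an oxysterol-binding protein relative (log2 0.41), and Hsd3b7 (log2 0.25) rose, and Hsd3b7 is uncertain because 70.5% of its windows are shared with another gene. Srebf1 (log2 -0.18) and Scap (log2 -0.19), of the sterol-regulated transcription pathway, fell. Gpr183, the receptor of a product of 25-hydroxycholesterol, was at 9.49 ± 0.513 FPKM against 8.73 ± 0.488 FPKM (SD, n = 3 each, shNumb-ctr against shscr-ctr) and did not pass (limma adjusted p = 0.215); it was chosen for naming after its values were seen.

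Lgals3 (ENSMUSG00000050335, chromosome 14), encoding galectin-3, was at 752, 735 and 748 FPKM in replicates 1, 2 and 3 labelled shNumb-ctr, against 625, 663 and 639 FPKM in replicates 1, 2 and 3 labelled shscr-ctr. The gap between the groups, from 735 FPKM in the lowest library labelled shNumb-ctr to 663 FPKM in the highest labelled shscr-ctr, was wider than the range within either. The means were 745 ± 8.65 FPKM in shNumb-ctr-labelled libraries and 643 ± 19.1 FPKM in shscr-ctr-labelled libraries (SD, n = 3 each), a 1.16-fold rise. The log2 fold change was 0.21, with SE 0.0283 and 95% limits of 0.15 and 0.28 (limma adjusted p = 0.00345). It stayed between 0.19 and 0.24 over the 16 alternatives and was called in each.

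Lgals1 (ENSMUSG00000068220, chromosome 15), encoding galectin-1, was at 624, 615 and 668 FPKM in replicates 1, 2 and 3 labelled shNumb-ctr, against 539, 587 and 521 FPKM in replicates 1, 2 and 3 labelled shscr-ctr. The groups did not overlap, but the nearest libraries, shNumb-ctr replicate 2 and shscr-ctr replicate 2, were closer to each other than the libraries of either group are at their extremes. The means were 636 ± 28.7 FPKM in shNumb-ctr-labelled libraries and 549 ± 34.0 FPKM in shscr-ctr-labelled libraries (SD, n = 3 each), a fold of 1.16 like that of Lgals3 with a wider error. The log2 fold change was 0.21, with SE 0.0492 and 95% limits of 0.10 and 0.32 (limma adjusted p = 0.0230). The Lgals1 call was lost without shNumb-ctr replicate 1 or 3 (limma adjusted p = 0.0522 and 0.0673) and without shscr-ctr replicate 1 or 3 (limma adjusted p = 0.0752 and 0.0670). It was also lost with no filter on low values and with 1 prior variance for all genes (limma adjusted p = 0.0600 and 0.0516). Of 9 other tested galectins and galectin ligands, Lgals8, Lgalsl and Lamp2 rose and 0 fell, with a median log2 fold change of 0.12. These 3 calls were lost in 5 of 16, 8 of 15 and 10 of 16 alternatives, and 0 of the 9 were called without shNumb-ctr replicate 2, shscr-ctr replicate 1 or shscr-ctr replicate 3, or with no filter on low values. Without shNumb-ctr replicate 1 or 3 and with quantile normalization, 1 of the 9 was called, and with upper-quartile rescaling 5 were.

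Cst7 (ENSMUSG00000068129, chromosome 2), encoding cystatin F, an inhibitor of cysteine cathepsins that is stored in granules and lysosomes, was at 81.8, 76.5 and 72.5 FPKM in replicates 1, 2 and 3 labelled shNumb-ctr. In shscr-ctr replicates 1, 2 and 3 it was at 66.4, 72.2 and 67.2 FPKM. The groups touched without overlapping, at 72.5 FPKM in shNumb-ctr replicate 3 and 72.2 FPKM in shscr-ctr replicate 2. The means were 76.9 ± 4.67 FPKM in shNumb-ctr-labelled libraries and 68.6 ± 3.15 FPKM in shscr-ctr-labelled libraries (SD, n = 3 each), 1.12-fold. Cst7 just missed the threshold, with a log2 fold change of 0.16, SE 0.0502 and unadjusted 95% limits of 0.05 and 0.28 (limma adjusted p = 0.0587). It passed without shNumb-ctr replicate 3 (limma adjusted p = 0.0451), without shscr-ctr replicate 2 (limma adjusted p = 0.0419), with the filter at 5 FPKM and with median-of-ratios or upper-quartile rescaling (limma adjusted p = 0.0476, 0.0444 and 0.0350). Of 10 tested cystatins and cysteine proteases other than Cst7, 6 rose and 2 fell, with a median log2 fold change of 0.14, and 4 were called higher without shNumb-ctr replicate 1. Cathepsin genes Ctsk and Ctsb rose (log2 0.37 and 0.36), and Ctsh fell (log2 -0.61). Ctsc, the cathepsin that cystatin F is known to restrain, was at 65.6 ± 0.329 FPKM in shNumb-ctr-labelled libraries, against 71.2 ± 2.02 FPKM in shscr-ctr-labelled libraries (SD, n = 3 each, log2 -0.12, limma adjusted p = 0.0324), a call that 10 of 16 alternatives did not keep. Among them, leaving out shNumb-ctr replicate 1, 2 or 3 gave limma adjusted p = 0.0907, 0.0601 and 0.0793, and leaving out shscr-ctr replicate 1 or 3 gave limma adjusted p = 0.102 and 0.0644.

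Lyz2 (ENSMUSG00000069516, chromosome 10), encoding the lysozyme of macrophages, was at 1319, 1315 and 1412 FPKM in replicates 1, 2 and 3 labelled shNumb-ctr, against 1167, 1163 and 1164 FPKM in replicates 1, 2 and 3 labelled shscr-ctr. The gap between the lowest library labelled shNumb-ctr and the highest labelled shscr-ctr was wider than the range within either group, and the shscr-ctr libraries had a coefficient of variation of 0.179%, the smallest among the 7 tested genes. The means were 1349 ± 54.6 FPKM in shNumb-ctr-labelled libraries and 1165 ± 2.09 FPKM in shscr-ctr-labelled libraries (SD, n = 3 each), 1.16-fold. The log2 fold change was 0.21, with SE 0.0318 and 95% limits of 0.14 and 0.28 (limma adjusted p = 0.00509), and Lyz2 was called in each of the 16 alternatives.

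Lyz1, the intestinal lysozyme gene next to Lyz2 on chromosome 10, is a near-identical copy. The coding sequences, both of 444 bases in GENCODE release M21, differ at 22 positions. Their first 120 coding bases, 5′ to 3′, are shown because they carry 11 of those differences, which are in capitals.
Lyz2: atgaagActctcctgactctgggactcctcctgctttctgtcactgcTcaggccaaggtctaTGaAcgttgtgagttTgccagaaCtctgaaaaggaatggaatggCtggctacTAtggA
Lyz1: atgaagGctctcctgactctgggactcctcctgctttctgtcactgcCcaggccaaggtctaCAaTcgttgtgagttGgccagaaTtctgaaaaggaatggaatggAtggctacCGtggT
Of 395 windows of 50 bases along the coding sequence, 80 are identical in both genes, and 14.2% of the windows sampled along the whole Lyz2 transcript occur in Lyz1. Lyz1 was at 2.13, 2.22 and 1.80 FPKM in replicates 1, 2 and 3 labelled shNumb-ctr, against 0.645, 0.878 and 1.02 FPKM in replicates 1, 2 and 3 labelled shscr-ctr. It rose 2.41-fold (log2 0.72, SE 0.101, limma adjusted p = 0.00393), and it passed the expression filter through the libraries labelled shNumb-ctr, since 1 of the 3 labelled shscr-ctr reached 1 FPKM. On the scale of log2(value + 0.1) the Lyz1 log2 fold change was 1.19. Lyz1 stood at 0.161%, 0.169% and 0.127% of the Lyz2 value in shNumb-ctr-labelled libraries, against 0.0552%, 0.0755% and 0.0881% in shscr-ctr-labelled libraries. How reads common to both genes were assigned is not given in the sources used here, so the level of Lyz1 is uncertain.

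Cd52 (ENSMUSG00000000682, chromosome 4) was at 104, 101 and 106 FPKM in replicates 1, 2 and 3 labelled shNumb-ctr, against 106, 117 and 103 FPKM in replicates 1, 2 and 3 labelled shscr-ctr. The libraries labelled shNumb-ctr lay within the range of those labelled shscr-ctr but for shNumb-ctr replicate 2, the lowest of the 6, and shscr-ctr replicate 2 was the highest. Mean levels were 104 ± 2.42 FPKM for shNumb-ctr and 109 ± 7.69 FPKM for shscr-ctr (SD, n = 3 each). The log2 fold change of -0.07, with SE 0.0487 and 95% limits of -0.18 and 0.05, did not pass (limma adjusted p = 0.377), and the interval leaves out a rise as large as that of Lgals3, Lgals1, Fabp5 or Lyz2. Without shscr-ctr replicate 2 the Cd52 log2 fold change was -0.01 (limma adjusted p = 0.873). Cd52 shares exon sequence with Crybg2 on the opposite strand in GENCODE release M21, and whether reads were counted by strand is not given in the sources used here. Soluble CD52 binds Siglec-10 in humans, a receptor for sialic acid. Of 5 other tested surface glycoproteins and Siglecs, Siglec1, Prnp and Cd33 rose and Cd48 fell. Siglec1 was at 37.9 ± 1.68 FPKM in shNumb-ctr-labelled libraries, against 26.6 ± 0.733 FPKM in shscr-ctr-labelled libraries (SD, n = 3 each, log2 0.49, limma adjusted p = 5.6e-04), and the calls for Prnp, Cd33 and Cd48 were lost in 6 of 15, 7 of 16 and 9 of 16 alternatives. Without shNumb-ctr replicate 1, 2 or 3 or shscr-ctr replicate 1, 1 of these 5 was called higher.

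With 3 libraries against 3, an exact two-sided permutation test over the 20 splits cannot go below p = 0.1. That smallest value was reached by Cst7, Lgals3, Lgals1, Fabp5 and Lyz2, while Apoe gave p = 0.3 and Cd52 p = 0.4 (exact permutation test). The calls above therefore rest on the variance model of limma, which the permutation test does not use.

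The promoters of Lgals3, Lyz2 and Cst7 are shown because the first pair were called and had an entry in the promoter table, and Cst7 was the nearest to the threshold. Each is the 250 bases before the RefSeq transcription start (GRCm38.p6), 5′ to 3′ on the gene's strand, with matches to the motifs searched in capitals.
Lgals3 (chr14:47373610-47373859, plus strand): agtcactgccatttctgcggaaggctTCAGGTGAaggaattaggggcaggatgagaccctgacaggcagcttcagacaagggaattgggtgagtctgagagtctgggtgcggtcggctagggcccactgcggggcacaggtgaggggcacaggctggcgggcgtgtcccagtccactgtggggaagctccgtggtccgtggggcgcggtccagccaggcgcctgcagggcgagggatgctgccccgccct
Lyz2 (chr10:117282273-117282522, minus strand): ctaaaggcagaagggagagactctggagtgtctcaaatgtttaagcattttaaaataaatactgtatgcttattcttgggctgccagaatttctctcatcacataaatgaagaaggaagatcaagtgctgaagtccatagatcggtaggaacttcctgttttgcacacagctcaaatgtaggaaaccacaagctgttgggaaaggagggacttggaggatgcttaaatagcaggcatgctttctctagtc
Cst7 (chr2:150570165-150570414, plus strand): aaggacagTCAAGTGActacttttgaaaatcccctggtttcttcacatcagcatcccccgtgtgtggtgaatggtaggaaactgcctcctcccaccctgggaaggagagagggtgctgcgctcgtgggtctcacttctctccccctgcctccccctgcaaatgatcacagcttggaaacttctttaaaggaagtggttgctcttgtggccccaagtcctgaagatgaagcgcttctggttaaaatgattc
The table had entries for 5 of the 8 genes, with 3 starts for Apoe, and Lgals1, Fabp5 and Cd52 were not matched. The G and C content of the windows was 66.0% for Lgals3, 41.6% for Lyz2 and 51.6% for Cst7, and they held 13, 1 and 4 CG dinucleotides.

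The motifs searched on both strands were those of AP-1 (TGANTCA), PU.1 (GAGGAAG), an E-box with its flanking bases (TCANGTGA), C/EBP (TTGCNNAA), NF-kB, the interferon response and the TATA box (TATAAA). An E-box match began 224 bases before the start of Lgals3 and 242 bases before that of Cst7, where 3.46% of the 32851 promoter windows of this length in the table hold one. Lyz2 held none of the 7 motifs in this window. Ch25h held a C/EBP match that began 112 bases before its start and a TATA box match that began 151 bases before it. The second Apoe start had overlapping TATA box matches on both strands, which began 100 and 96 bases before it. The C/EBP and TATA box motifs are held by 9.56% and 12.4% of windows. No window of the 5 genes held the AP-1, PU.1, NF-kB or interferon motif as searched, which 6.75%, 10.6%, 1.41% and 2.98% of windows hold. A match or its absence describes these letters and says nothing of binding.

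Of 29 other genes of that state, all of them tested, 17 rose and 0 fell, with a median log2 fold change of 0.16, or 0.11 with quantile normalization; this list shares Ctsb, Ctsl and Npc2 with lists above. Over all tested genes 8.11% were higher, and 15.5% of those with a mean at least as high as that of Cst7. Lgals3, Lgals1, Lyz2 and Fabp5 lay next to each other in the order of their log2 fold changes apart from Tyrobp, the adaptor of TREM2, at 0.21. Spp1, the secreted glycoprotein osteopontin, stood at 2963 ± 76.6 FPKM in shNumb-ctr-labelled libraries, against 1502 ± 19.3 FPKM in shscr-ctr-labelled libraries (SD, n = 3 each), a fold of 1.97, where the 4 called genes were at 1.14 to 1.16. Csf1, a growth factor of microglia, was at 1.44-fold (log2 0.51, limma adjusted p = 2.6e-04). The calls for Cd68 and Fth1 were lost in 9 and 1 of 16 alternatives, and the other 15 risers were called in every alternative in which they were tested. Among those 15, Lilrb4a and Ctsd are uncertain, with 43.8% and 36.5% of their windows shared with other genes.

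**Figure D2:**
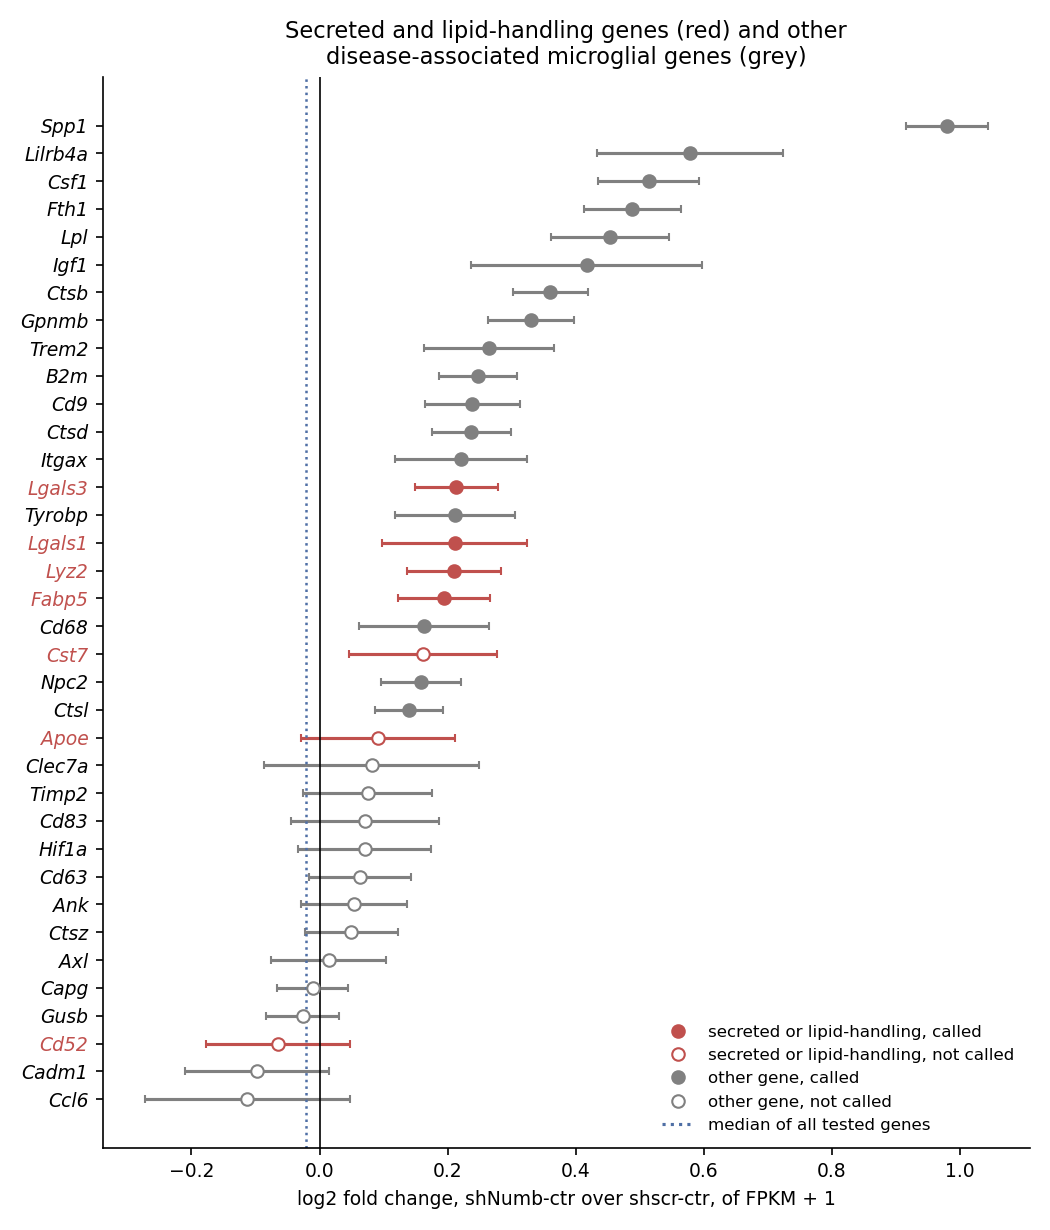
Log2 fold change of FPKM + 1, shNumb-ctr over shscr-ctr, for the 7 tested secreted and lipid-handling genes in red and 29 other disease-associated genes in grey, with 95% intervals from limma; filled points passed an adjusted p of 0.05 and the dotted line is the median of all tested genes at -0.02. Lgals3, Lgals1, Lyz2 and Fabp5 sit close together near 0.2, below Spp1 at 0.98 and Csf1 at 0.51.

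**Figure D3:**
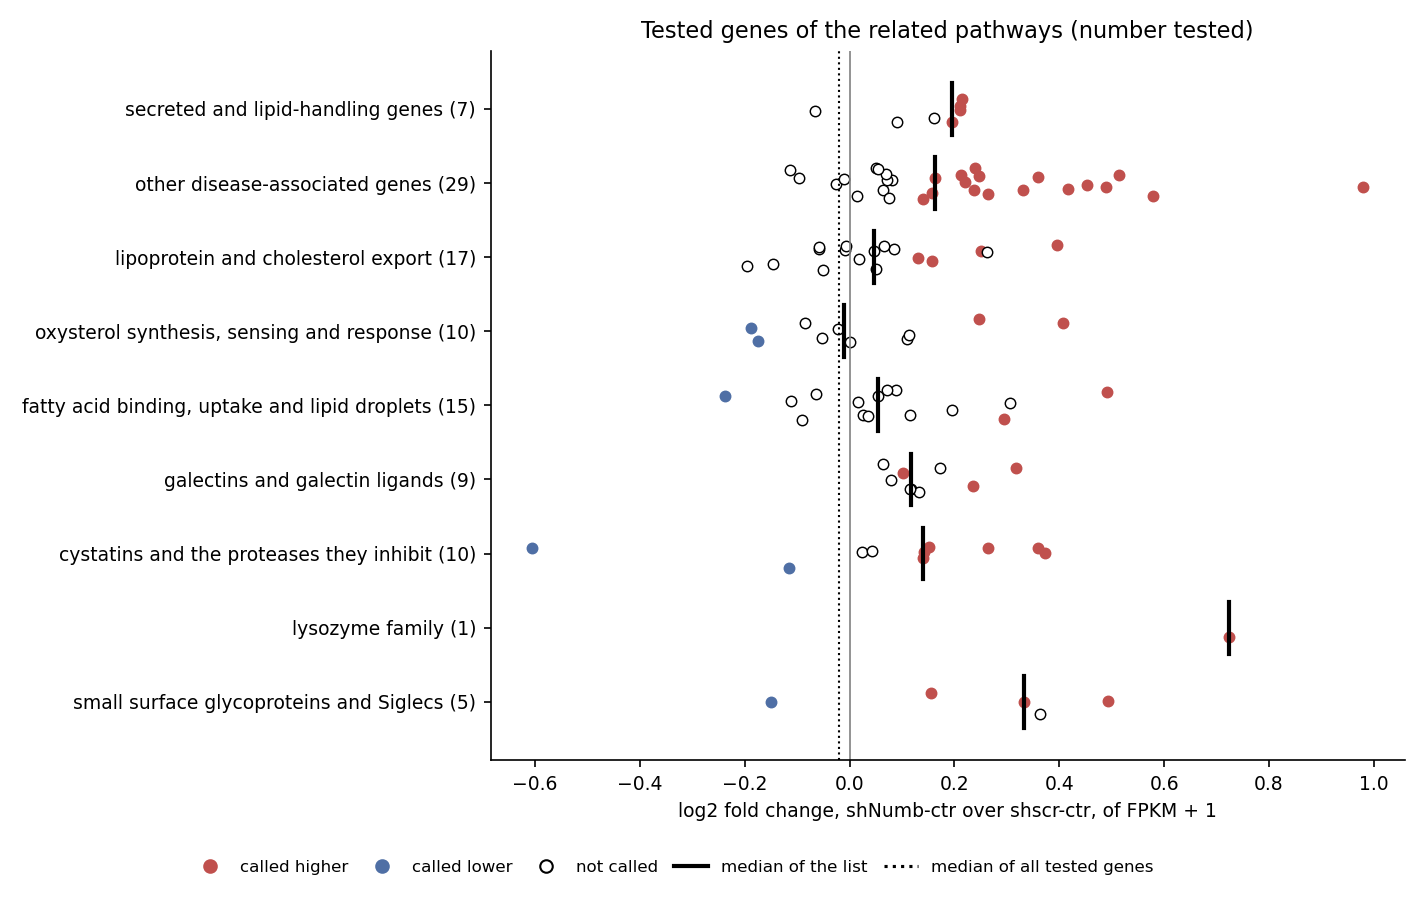
Log2 fold change of FPKM + 1, shNumb-ctr over shscr-ctr, for each tested gene of the lists related to the 8 genes, with the number tested in parentheses; red points were called higher, blue lower and open points neither, and the bar is the list's median. The medians are 0.19 for the secreted and lipid-handling genes, 0.16 for other disease-associated genes and 0.05 for lipoprotein handling, the last at -0.00488 without shscr-ctr replicate 3.

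The genes whose values followed each of the 7 tested genes most closely over the 6 libraries were found by the Euclidean distance between log2 profiles centred on their means, with candidates limited to tested genes averaging 5 FPKM or more. For Lyz2 they were Wsb2 and App, at distances of 0.0316 and 0.0411, where Lyz2 itself varied by 0.271 about its mean on the same measure. For Fabp5 they were Cyth4 and Atp6v1g1 (0.0385 and 0.0526, against 0.251 for Fabp5 itself). Lgals3 was followed by Rps25 and Psmd8 (0.0405 and 0.0493, against 0.270 for Lgals3), of which Rps25 is uncertain with 25.8% of its windows shared. Lgals1 was followed less closely, by Rnf157 and Ginm1 (0.0672 and 0.0688, against 0.301). The nearest genes were Prkab1 and Tubb6 for Apoe (0.0360 and 0.0435), Cd274 and Ccdc124 for Cst7 (0.0594 and 0.0629), and Zfp64 and Tm2d2 for Cd52 (0.0288 and 0.0482). None of the 8 genes was the nearest neighbour of another. The nearest of many candidates over 6 libraries are close by selection, and shared regulation was not tested.

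**Figure D4:**
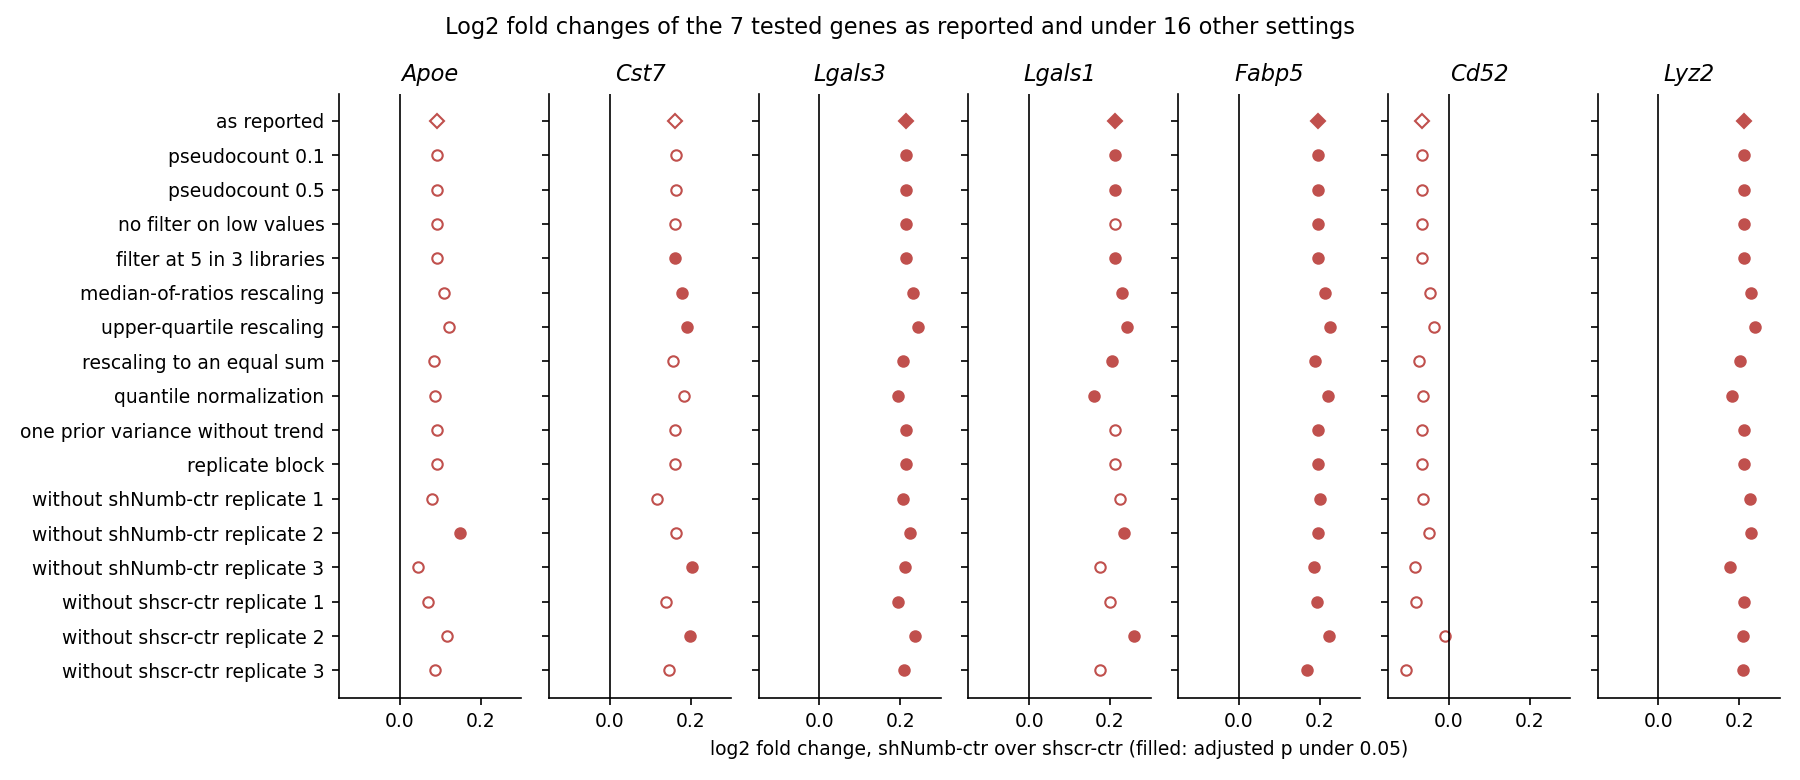
Log2 fold change, shNumb-ctr over shscr-ctr, of the 7 tested genes as reported (diamonds) and under 16 other settings (circles), filled where the limma adjusted p was under 0.05. Lgals3, Fabp5 and Lyz2 are filled in every row, Lgals1 in 9 of the 16, Cst7 in 5, Apoe in 1 and Cd52 in none.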

How the data were processed

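For each of 6 libraries the authors deposited 1 value per gene for 22672 genes. The deposited column headers name no unit. The values were read as FPKM normalized by the authors, since they are fractional and never negative. These traits and the like sums do not tell FPKM from TPM, so the unit is an assumption. Per the submitters' processing notes CASAVA and DESeq2 were used, with no version or role; the sources used here give no aligner, build or annotation. Gene names of the form StringTie assigns occur in 556 deposited rows.

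Values were analysed as log2(value + 1) in limma 3.58.1 (R 4.3.3) with a mean-dependent prior variance and no covariate, shNumb-ctr against shscr-ctr, two-sided, with Benjamini-Hochberg adjustment over the 10594 genes at 1 or more in at least 3 libraries. Calls needed an adjusted p below 0.05. The log2 scale with a pseudocount understates changes of low genes. The fit was tested on simulated data. The 8 genes, the lists and the naming rule (at most 2 called genes per list and direction, and the 2 nearest profiles of each tested gene) were chosen with earlier results of these data known; genes named outside that rule were picked with their values known, most of them to name small counts. Alternatives were 2 pseudocounts, 2 filters, 4 scalings, 1 prior variance, a replicate block and leaving out each library. Transcript windows of 50 bases every 10 bases, taken along each gene's longest transcript, and gene overlaps come from GENCODE M21 (GRCm38). Promoters come from RefSeq (GRCm38.p6), and both were read with Python 3.11.15. Genes with over 20% of windows shared are called uncertain, a share that depends on the length of that transcript. Precision is limited by 3 libraries per group. The list of genes of resting microglia is not reported here.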

Additional observations from a re-analysis of the deposited data

How the results depend on the processing

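Over the 16 alternatives, the number of these genes called higher ran from 3 to 5 (4 as reported) and the number called lower was 0, and the log2 fold changes of all 7 tested genes kept their sign. Lgals3, Fabp5 and Lyz2 kept the call throughout. Over all genes, 859 were higher and 1130 lower. With the replicate block 520 were higher and 559 lower, and 3 of these genes were called, the call for Lgals1 being lost (limma adjusted p = 0.0608). Leaving out 1 library gave 499 to 671 higher and 465 to 869 lower, with the fewest without shscr-ctr replicate 1. Upper-quartile rescaling left 747 lower and moved the share of calls that were higher to 59.9%, against 43.2% as reported, while the median of all genes moved to 0.00608. Deviations of same-numbered libraries correlated at 0.00667, 0.0118 and 0.0472, and those of differently numbered libraries at -0.0879 to 0.0656. With 3 libraries per group, these values cannot decide whether the replicate numbers mark a shared culture or day. The causes of these changes were not tested. Without counts, depth limits cannot be stated.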
